A study of Mus musculus with 6 samples.

Results

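Tetraspanins are small membrane proteins that cross the membrane several times and gather integrins, proteases and signalling receptors into shared patches of the cell surface. The 10 members described here are Cd9, Cd37, Cd53, Cd63, Cd81, Cd82, Cd151, Tspan13, Tspan32 and Tspan33, chosen by symbol. All 10 were found among the 17500 genes of the deposited count table for the whole series, and all 10 passed the filter on low counts. Their transcripts were measured by RNA-seq in long-term haematopoietic stem cells (LT-HSCs) of wild-type C57/Bl6 male mice aged 22 to 24 months. One group is CD61High, the 10% of LT-HSCs with the most CD61 on their surface, and the other is CD61Low, the 10% with the least. Each group has 3 libraries of 5000 cells, one from each of 3 mice, so every mouse gave a library to both groups. The sort kept cells that were negative for lineage markers and CD48 and positive for Sca1, cKit and CD150, in both groups alike. Each title carries a mouse number, read here as one animal, although the protocol mentions pools. The mice are old, and no young animals are part of the comparison.

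As background, CD61 is integrin beta 3, encoded by Itgb3, and tetraspanins are known for holding integrins in larger complexes and for changing how firmly they signal. In blood cells several members mark particular lineages, while in mouse LT-HSCs Cd82 and Cd81 are known for roles in entering or keeping the resting state. The comparison asks how far transcripts of these organisers differ between stem cells with high and with low surface CD61. Levels are in CPM, which corrects counts for library size, here with TMM factors, and differences as log2 of CD61High over CD61Low. Called genes are those whose adjusted p is below 0.05 in edgeR's quasi-likelihood test, adjusted over all 15610 genes tested. That test was run without a block and, since both groups come from the same mice, with the mouse as a block.

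The libraries held between 21354130 and 26398090 counts on genes. All 10 LT-HSC markers of the list used here, such as Kit, Slamf1 and Hlf, were detected in every library. Their summed share of all counts was 0.202% to 0.437% for the CD61High libraries and 0.136% to 0.620% for the CD61Low ones. Both libraries of mouse 2 stood apart. In mouse 2 the neutrophil markers summed to 7.57% of the CD61High library and 12.2% of the CD61Low library, and in mice 1 and 3 to 0.0427% to 0.581% of CD61High and 0.216% to 2.25% of CD61Low libraries. Transcripts of Cd48, whose protein the sort selected against, reached 59.8 CPM (CD61High) and 129.6 CPM (CD61Low) in mouse 2, and stayed at 1.07 to 5.54 CPM (CD61High) and 1.67 to 29.5 CPM (CD61Low) in mice 1 and 3. For some genes, and for the counts of genes called, results are therefore also given without mouse 2.

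Once each mouse was compared with itself, Cd82 was the only one of the 10 tetraspanins to pass edgeR's threshold. Its level in CD61High was about 0.492 times that in CD61Low. Cd53 fell further on average, to about 0.405 times, but varied more between mice and missed the threshold (adjusted p = 0.0689 in edgeR). Without the block edgeR called 0 of the 10 members and 0 of all 15610 genes (0%), with 6.55% of all genes and none of the members at an unadjusted p under 0.05. DESeq2 without the block called 237 genes (1.52%) and limma voom 0, with no member among them. The blocked fit called 0.256% of all genes, 0.0961% as higher and 0.160% as lower, and among the members 0 as higher and 1 as lower. Before adjustment, p was under 0.05 with the block for 4 members lower in CD61High (Cd53, Cd63, Cd82 and Tspan33), against 12.8% of all genes, and 0 higher, against 8.01% of all genes. Other tools with the block called more, DESeq2 3 members as lower (Cd82, Cd53 and Tspan33) against 7.11% of all genes, and limma voom 2 (Cd82 and Cd53) against 2.33%. In the direction of the difference by mouse, 5 members were lower in CD61High in all 3 mice (24.7% of all genes were) and 2 were higher in all 3 (20.6% of all genes were). The median log2 fold change of the members was -0.30 without the block and -0.26 with it, beside -0.05 and -0.02 over all genes. Summed over the members, the share of the RNA was slightly smaller in CD61High of each mouse, at 0.312%, 0.302% and 0.260% of counts in CD61High of mice 1, 2 and 3, against 0.322%, 0.322% and 0.299% in CD61Low. Without Cd53 that share was 0.306%, 0.257% and 0.254% in CD61High, against 0.301%, 0.257% and 0.286% in CD61Low. It was then slightly larger in CD61High of mouse 1, nearly equal in mouse 2 and smaller in mouse 3. The 95% Wilson interval of the first of the shares of all 10 members, 0.309% to 0.314%, covers counting error only.

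**Figure D1:**
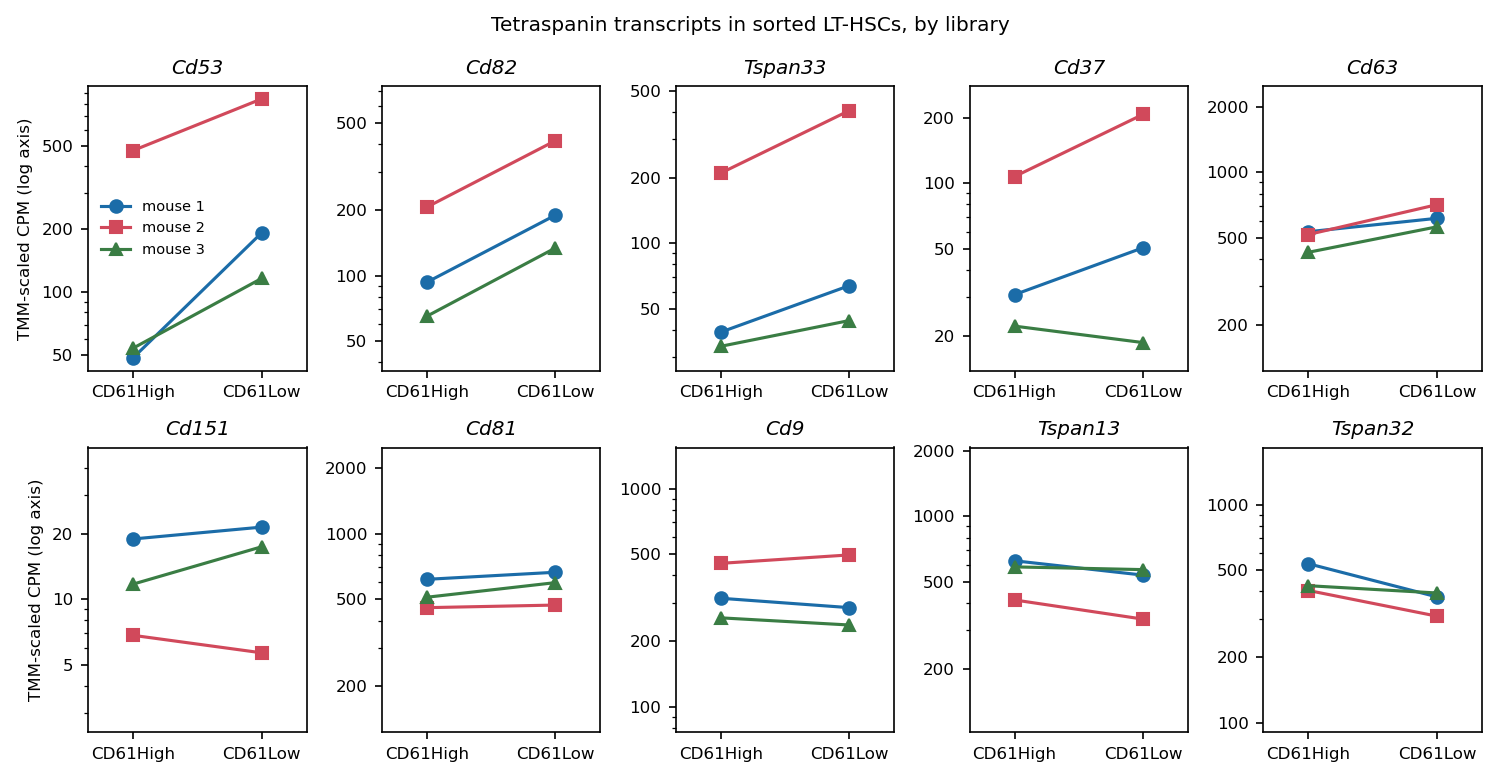
TMM-scaled CPM (log axis) of the 10 tetraspanins in each library, with CD61High left and CD61Low right and a line joining the libraries of each mouse. The 3 lines of Cd82 run in parallel, at 93.2, 206 and 65.1 CPM in CD61High and 189, 416 and 134 CPM in CD61Low of mice 1, 2 and 3, and mouse 2 lies far above the others for Cd53, Tspan33 and Cd37.

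The stretches before the start sites of Cd82, Cd53 and Tspan33, the 3 members with the largest decreases with the block, and of Tspan32, the member with the largest increase, are shown because the first 3 moved together and the last one the other way. Each line is the 250 bases upstream of a RefSeq start on GRCm38.p6, read 5′ to 3′ along the gene. Cd82 lies at chr2:93462503-93462752 on the minus strand and is 1 of 4 RefSeq starts, Cd53 at chr3:106790150-106790399 on the minus strand, Tspan33 at chr6:29693964-29694213 on the plus strand and Tspan32 at chr7:143004796-143005045 on the plus strand. Capitals mark matches, on either strand, to the letters AGATAA for the GATA family, TGANTCA for AP-1, GGAAGT for ETS factors and TGTGGT or TGCGGT for RUNX factors.
Cd82: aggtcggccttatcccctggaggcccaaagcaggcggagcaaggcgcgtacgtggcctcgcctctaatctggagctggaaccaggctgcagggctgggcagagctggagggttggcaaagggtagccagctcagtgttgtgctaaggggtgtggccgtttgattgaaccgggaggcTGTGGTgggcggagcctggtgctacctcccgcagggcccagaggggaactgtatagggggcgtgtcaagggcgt
Cd53: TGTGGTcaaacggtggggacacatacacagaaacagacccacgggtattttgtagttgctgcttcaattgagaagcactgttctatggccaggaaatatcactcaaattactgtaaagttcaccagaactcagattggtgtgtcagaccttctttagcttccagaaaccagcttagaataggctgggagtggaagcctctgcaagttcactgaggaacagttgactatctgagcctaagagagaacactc
Tspan33: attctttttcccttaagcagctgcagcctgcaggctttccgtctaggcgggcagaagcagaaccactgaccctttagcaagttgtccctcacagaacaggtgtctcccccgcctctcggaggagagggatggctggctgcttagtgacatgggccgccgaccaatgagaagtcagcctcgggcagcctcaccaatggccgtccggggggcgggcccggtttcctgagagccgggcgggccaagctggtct
Tspan32: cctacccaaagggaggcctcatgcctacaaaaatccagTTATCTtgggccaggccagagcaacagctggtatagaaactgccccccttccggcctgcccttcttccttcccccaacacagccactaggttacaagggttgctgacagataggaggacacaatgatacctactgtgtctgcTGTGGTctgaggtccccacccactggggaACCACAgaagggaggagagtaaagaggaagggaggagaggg

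The RUNX letters had 1 match before Cd82, 1 before Cd53, 2 before Tspan32 and none before Tspan33, and occurred in 18.6% of 32817 such windows of all genes. In Cd82 the match began 74 bases before the start, and in Cd53 at the far end of the window, 250 bases before it. The GATA letters occurred before Tspan32 alone of the 4, 212 bases before its start, and in 9.99% of all windows. Neither the AP-1 nor the ETS letters were in any of the 4 windows, against 6.75% and 19.7% of all windows. The other 3 RefSeq starts of Cd82 hold 2 ETS matches and 2 RUNX matches among them. These are matches of letters only.

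Cd82, Cd81 and Cd9 are among the tetraspanins that organise signalling at the cell surface. Cd82 (ENSMUSG00000027215.13, GRCm38 chromosome 2, 93419111 to 93463140, minus strand), also known as the metastasis suppressor KAI1, marks resting LT-HSCs in mice. It had 93.2, 206 and 65.1 CPM in CD61High of mice 1, 2 and 3, against 189, 416 and 134 CPM in CD61Low. Every CD61High library lay below the CD61Low library of its own mouse by nearly the same factor, yet the groups overlapped, because both libraries of mouse 2 were high. The log2 difference was -1.02, -1.01 and -1.04 in mice 1, 2 and 3. The blocked log2 fold change of -1.02 (SE 0.12) passed edgeR's test (adjusted p = 0.0446). Without the block it was -1.02 (SE 0.59) at an adjusted p of 0.818, so the call rests on comparing each mouse with itself. The unblocked value was -0.41 without the CD61Low library of mouse 2 and -1.64 without its CD61High library. The call was also lost with the block when mouse 1 (adjusted p = 0.318) or mouse 3 (0.155) was left out, and with upper-quartile factors (0.0648) or library sizes alone (0.156), while the fold change stayed between -1.05 and -0.94 in every blocked fit. Over all genes, 1.60% were at least as low as 2-fold in CD61High in each of the 3 mice, and Cd82 was the only member among them. The values of Cd82 lay just past that cut, and Cd53 missed it in mouse 2 alone (log2 difference -0.82). In a bulk library fewer cells that hold a transcript and less of it per cell cannot be told apart.

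Markers of several other cell types were also lower in CD61High. All 20 neutrophil markers and 10 of 12 monocyte and macrophage markers were lower in CD61High in all 3 mice. So were 10 of 12 erythroid and 8 of 12 B lineage markers. The same held for 5 of 11 T and NK, 3 of 6 plasma cell and 1 of 8 endothelial markers tested. Of the endothelial markers 2 were higher in all 3 mice. Over all genes 24.7% were lower and 20.6% higher in all 3 mice. The part of these markers' cell types in the difference of Cd82 was not tested. By mouse, the neutrophil share of CD61High was 0.581%, 7.57% and 0.0427%, against 2.25%, 12.2% and 0.216% for CD61Low. Megakaryocyte and platelet markers went the other way, with 7 of 11 tested higher in CD61High in all 3 mice and 1 lower. Of the 10 LT-HSC markers 5 were lower in all 3 mice and 0 higher, and Ly6a (log2 fold change -1.34, adjusted p = 0.0446 in edgeR) and Procr (-1.25, 0.0436) were called as lower in the same blocked fit as Cd82. Without mouse 2 the blocked log2 fold change of Cd82 was -1.05 (SE 0.11) at an adjusted p of 0.0211 in edgeR, where 2.93% of all genes were called as lower.

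A ratio of counts within a library does not depend on the scaling between libraries. The count of Cd82 over that of Cd81 was 0.151, 0.450 and 0.127 in CD61High of mice 1, 2 and 3, against 0.284, 0.883 and 0.224 in CD61Low. This ratio was lower in CD61High in 3 of 3 mice, by 0.91, 0.97 and 0.82 on the log2 scale (differences of -0.91, -0.97 and -0.82). That was not particular to Cd82. The ratio to Cd81 was also lower in 3 of 3 mice for Cd53 (-1.88, -0.78 and -0.89), Tspan33 (-0.60, -0.91 and -0.17) and Cd63 (-0.097, -0.415 and -0.165). For Cd37 it was lower in mice 1 and 2 and higher in mouse 3, and for Tspan32 it was higher in 3 of 3 mice.

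Cd81 (ENSMUSG00000037706.17, chromosome 7, 143052739 to 143067934) is part of a signalling complex on B cells and in mouse stem cells has been tied to the return to rest after division. It had 618, 458 and 511 CPM in CD61High of mice 1, 2 and 3, against 666, 471 and 597 CPM in CD61Low. The values of the groups overlapped and each mouse showed a slightly lower level in CD61High. Its log2 fold change of -0.13 (SE 0.20) did not pass edgeR's test (adjusted p = 0.940). Cd9 (ENSMUSG00000030342.8, chromosome 6, 125460266 to 125494791), which is abundant on megakaryocytes and platelets and pairs with integrins and immunoglobulin-family proteins, had 314, 454 and 256 CPM in CD61High, against 285, 497 and 237 CPM in CD61Low. Mice 1 and 3 were a little higher in CD61High and mouse 2 a little lower, and the log2 fold change was 0.01 (SE 0.35, adjusted p = 0.996 in edgeR). Its sign turned with relative log expression factors, where it was -0.02. With the block the SE of both genes was 0.13, larger than the estimates of -0.12 for Cd81 and 0.04 for Cd9.

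The leukocyte tetraspanins Cd53 and Cd37 varied widely between the mice. Cd53 (ENSMUSG00000040747.9, chromosome 3, 106759921 to 106790149) is found on nearly all white blood cells and steadies the receptor for interleukin-7. It had 48.5, 477 and 53.9 CPM in CD61High of mice 1, 2 and 3, against 192, 842 and 116 CPM in CD61Low. In each mouse CD61High was the lower library, but CD61High of mouse 2 lay above CD61Low of mice 1 and 3. The log2 difference was -1.99, -0.82 and -1.11 in mice 1, 2 and 3, and without the block the fold change of -0.99 (SE 1.17) did not pass edgeR's test (adjusted p = 0.939). With the block it was -1.30 (SE 0.24) at an adjusted p of 0.0689, and without mouse 2 the blocked value was -1.56 (SE 0.25) and was called (adjusted p = 0.0417). Leaving out the CD61Low library of mouse 2 alone turned the unblocked value to 0.32.

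Cd37 (ENSMUSG00000030798.15, chromosome 7, 45233632 to 45239115), best known from mature B cells, had 30.9, 107 and 22.1 CPM in CD61High of mice 1, 2 and 3, against 50.6, 207 and 18.6 CPM in CD61Low. It was lower in CD61High in mice 1 and 2 and higher in mouse 3. The log2 fold change of -0.79 (SE 1.00) did not pass the test (adjusted p = 0.940 in edgeR), and without the CD61Low library of mouse 2 it was 0.63. B lineage markers took 0.00958%, 0.0368% and 0.00513% of counts in CD61High and 0.0259%, 0.0542% and 0.00643% in CD61Low of mice 1, 2 and 3, so mouse 3 had few of them in either group.

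Tspan33 belongs to the tetraspanins that carry the protease Adam10 to the surface, the TspanC8 group, and is also known as Penumbra from erythroid cells. Tspan33 (ENSMUSG00000001763.14, chromosome 6, 29694222 to 29718559) had 39.1, 210 and 33.7 CPM in CD61High of mice 1, 2 and 3, against 64.0, 406 and 44.2 CPM in CD61Low. Each mouse was lower in CD61High, by 0.71, 0.95 and 0.39 on the log2 scale (differences of -0.71, -0.95 and -0.39), and mouse 2 was far above the others in both groups. The log2 fold change of -0.86 (SE 1.11) did not pass edgeR's test (adjusted p = 0.940), nor did the blocked value of -0.69 (SE 0.15, adjusted p = 0.0837). Erythroid markers took 0.423%, 1.75% and 0.328% of counts in CD61High and 0.544%, 3.01% and 0.311% in CD61Low of mice 1, 2 and 3. Of the 12 erythroid markers 10 were lower in CD61High in all 3 mice, and their part in the values of Tspan33 was not tested. Without the CD61Low library of mouse 2 the unblocked value of Tspan33 was 0.80.

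**Figure D2:**
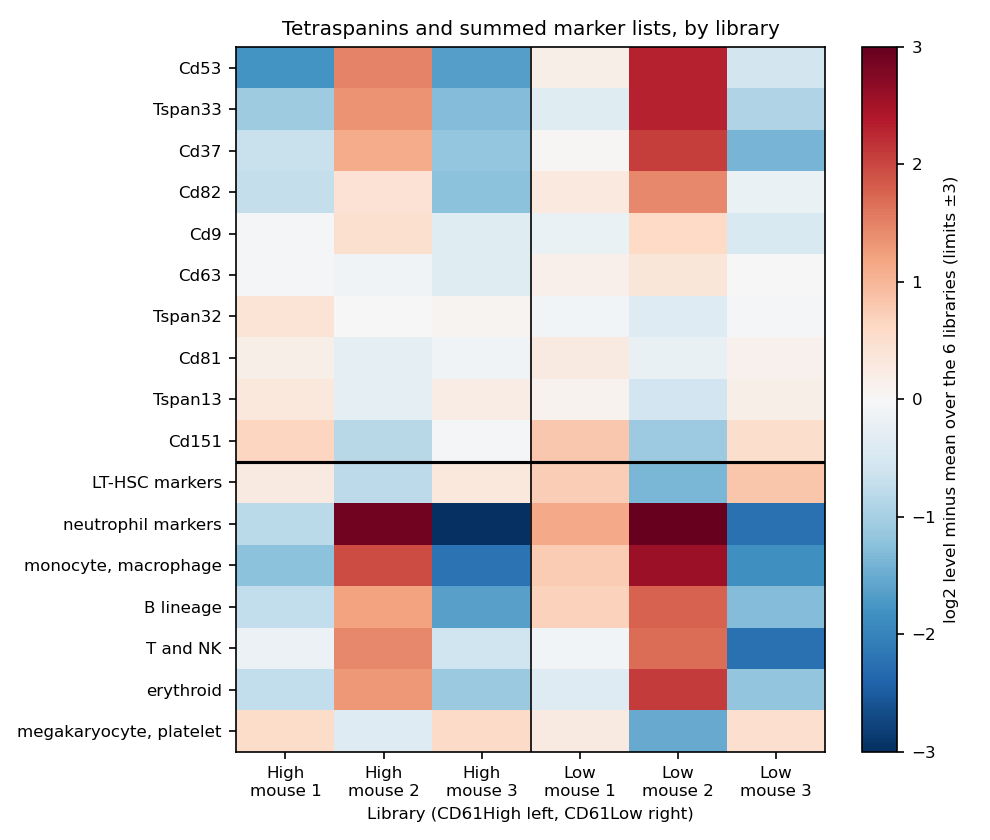
Log2 level of each tetraspanin (CPM, above the line) and of summed marker lists (percent of counts, below the line), each minus its mean over the 6 libraries, with CD61High left and CD61Low right. Cd53, Tspan33, Cd37, Cd82, Cd9 and Cd63 are highest in the CD61Low library of mouse 2. So are the neutrophil, monocyte, B lineage, T and NK and erythroid lists. Cd151, Tspan13, Tspan32, the LT-HSC markers and the megakaryocyte and platelet list are lowest there.

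The remaining members work with integrins or in the endosome. Cd63 (ENSMUSG00000025351.14, chromosome 10, 128900989 to 128912822) sits in late endosomes, lysosomes and platelet granules and is a standard marker of exosomes. It had 535, 519 and 430.3 CPM in CD61High of mice 1, 2 and 3, against 616, 712 and 563 CPM in CD61Low. Here all CD61High libraries lay below all CD61Low libraries, which held for 5.71% of all genes tested. The log2 fold change was -0.35 (SE 0.17) at an adjusted p of 0.760 in edgeR, and -0.35 (SE 0.14, adjusted p = 0.220) with the block. Tspan32 (ENSMUSG00000000244.17, chromosome 7, 143005046 to 143019644), a blood-cell tetraspanin that in mouse platelets regulates signalling by the integrin of Itga2b and Itgb3, had 536, 404 and 425 CPM in CD61High, against 378, 308 and 393 CPM in CD61Low. All CD61High libraries were above all CD61Low libraries, as for 8.62% of all genes. Its log2 fold change was 0.34 (SE 0.18, adjusted p = 0.797 in edgeR), or 0.34 (SE 0.14, adjusted p = 0.245) with the block. Neither gene passed the threshold, although neither pair of groups overlapped.

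Cd151 and Tspan13 completed the set. Cd151 (ENSMUSG00000025510.14, chromosome 7, 141467392 to 141471473), which binds the laminin receptors of the integrin family, was the scarcest, with 18.9, 6.84 and 11.7 CPM in CD61High of mice 1, 2 and 3, against 21.4, 5.68 and 17.4 CPM in CD61Low. Its lowest libraries were those of mouse 2, and its log2 difference was below 0 in mice 1 and 3 and above 0 in mouse 2. The fold change was -0.25 (SE 0.59, adjusted p = 0.946 in edgeR). Tspan13 (ENSMUSG00000020577.17, chromosome 12, 36014557 to 36042500) had 626, 414 and 587 CPM in CD61High, against 538, 338 and 570.1 CPM in CD61Low. It was slightly higher in CD61High in 3 of 3 mice while the groups overlapped, at a log2 fold change of 0.17 (SE 0.27, adjusted p = 0.940 in edgeR). Without the CD61Low library of mouse 2 its value was -0.03.

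**Figure D3:**
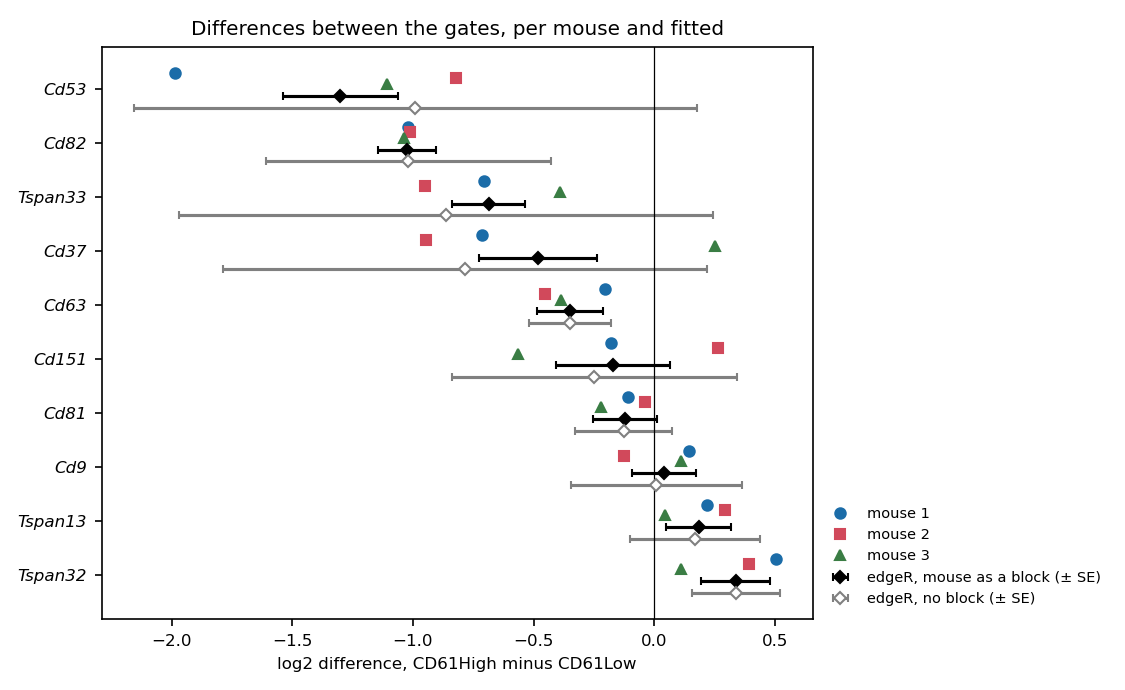
Log2 difference of CD61High minus CD61Low for each tetraspanin, as 1 coloured point per mouse, as edgeR's estimate with the mouse as a block (black, ± SE) and as its estimate without a block (grey, ± SE). The 3 points of Cd82 lie between -1.04 and -1.01, while those of Cd53 run from -1.99 to -0.82 and those of Cd37 from -0.95 to 0.25.

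Members can be compared with each other only per length, as CPM per kb of exon. On that scale Tspan13 had the highest median level over the 6 libraries (224 CPM per kb), followed by Cd81 (192), Cd63 (149), Cd9 (147), Cd53 (88.6), Tspan32 (64.0), Cd82 (53.8), Cd37 (11.6), Tspan33 (10.4) and Cd151 (5.31). Few neighbours in this order kept their places in every library, and the ranges over libraries overlapped in every neighbouring pair. Cd82 was above Cd37 and Tspan33 above Cd151 in 6 of 6 libraries, whereas each of the other 7 neighbouring pairs changed places in at least 1 library. Tspan13, Cd81, Cd63 and Cd9 stayed above the 97th percentile of the genes tested in every library (lowest values 97.3, 97.9, 98.0 and 98.3). Cd53 had the widest range, at 27.8, 274 and 31.0 CPM per kb in CD61High of mice 1, 2 and 3, against 110.3, 483 and 66.8 in CD61Low. It was therefore the first of the 10 members in both libraries of mouse 2 and the fifth to seventh elsewhere.

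**Figure D4:**
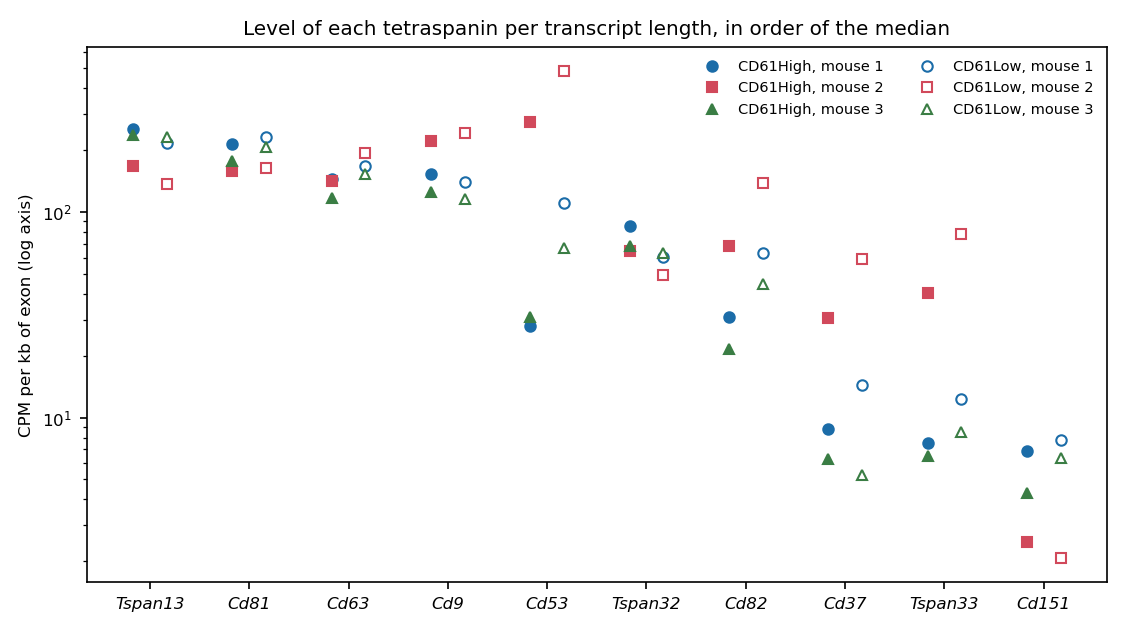
CPM per kb of exon (log axis) of the 10 tetraspanins in order of their median, with filled symbols for CD61High (left of each tick) and open symbols for CD61Low (right), shaped by mouse. Tspan13, Cd81, Cd63 and Cd9 lie between 116 and 253 CPM per kb in all 6 libraries, and Cd53 spreads from 27.8 to 483.

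The members also differed in how mouse 2 compared with mice 1 and 3, a difference between animals and not between the groups. Averaged over the groups, the log2 level of mouse 2 above the mean of the other mice was 2.86 for Cd53, 2.73 for Tspan33, 2.39 for Cd37, 1.39 for Cd82 and 0.81 for Cd9. It was 0.19 for Cd63, -0.28 for Tspan32, -0.36 for Cd81, -0.63 for Tspan13 and -1.43 for Cd151. The members high in mouse 2 include all 4 with the largest fitted decreases in CD61High. The LT-HSC markers ran the other way, at 0.425%, 0.202% and 0.437% of counts in CD61High and 0.589%, 0.136% and 0.620% in CD61Low of mice 1, 2 and 3.

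Genes whose profile over the 6 libraries was nearest to that of a member were looked for among 10620 genes with a mean of at least 5 CPM, by the distance between log2 CPM values centred on each gene. For Cd82 these were Id2 (distance 0.293), Ptafr (0.331) and Lst1 (0.332). Id2, an inhibitor of basic helix-loop-helix transcription factors, had 39.4, 94.1 and 24.8 CPM in CD61High of mice 1, 2 and 3, against 89.1, 168 and 64.1 CPM in CD61Low. Like Cd82 it was lower in CD61High of each mouse and highest in mouse 2. The nearest genes to Cd53 were Csf2rb, a subunit of cytokine receptors, at 0.503, Aatk at 0.507 and Prkcb, a protein kinase C, at 0.542. Those to Cd9 were Scp2, Ppm1d and Fahd1, at 0.163 to 0.192. All 9 were selected for likeness, so their own differences support nothing further.

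Some tetraspanin genes are neighbours on their chromosome. Tspan32 and Cd81 lie on the plus strand of chromosome 7 with 33094 bases between them, and the first was higher and the second slightly lower in CD61High in all 3 mice, neither past the threshold. Cd151 is followed after 3766 bases by Tspan4, and Cd82 and Tspan18 are 84605 bases apart on chromosome 2. Tspan18 was barely detected, at 0.440 ± 0.0735 CPM in CD61High and 0.466 ± 0.211 CPM in CD61Low (SD, n = 3 each). Cd9, Cd151, Cd81, Tspan32 and Cd37 share 10.7%, 7.04%, 3.61%, 4.35% and 0.369% of their exon bases with another annotated gene. As the libraries do not mark the strand, reads in those bases were counted as ambiguous and for neither gene. The exon lengths used for CPM per kb still include those bases.

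Of the 21 other tetraspanin genes listed, 16 passed the filter on low counts. EdgeR called 0 of the 16 without the block (0% of all genes) and 0 with it (0.256% of all genes), with 1 (lower, against 6.55% of all genes in either direction) and 5 (2 higher and 3 lower, against 8.01% and 12.8% of all genes) at an unadjusted p under 0.05. Per kb the most abundant were Tspan14, Tspan4, Tspan3 and Tspan31. Tspan14, which like Tspan33 escorts Adam10, averaged 346 ± 66.5 CPM in CD61High and 422 ± 117 CPM in CD61Low (SD, n = 3 each), and was lower in CD61High in 3 of 3 mice (log2 fold change -0.28, SE 0.27, adjusted p = 0.924 in edgeR). Adam10 itself averaged 531 ± 78.6 CPM across CD61High and 513 ± 108 CPM across CD61Low libraries. Of the other TspanC8 genes, Tspan5 averaged 47.7 ± 2.18 CPM in CD61High and 48.8 ± 10.1 CPM in CD61Low, Tspan17 8.70 ± 0.443 and 11.5 ± 1.12 CPM, and Tspan15 2.00 ± 1.87 and 4.15 ± 4.54 CPM. Tspan4 and Tspan3 averaged 199 ± 58.8 and 254 ± 67.3 CPM in CD61High and 182 ± 84.7 and 257 ± 108 CPM in CD61Low. Tspan31 averaged 66.4 ± 9.78 CPM in CD61High and 69.8 ± 9.65 CPM in CD61Low. It shares 29.2% of its exon bases with Cdk4. Reads in shared bases were counted as ambiguous and for neither gene, so these values may be too low.

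Proteins that bind, modify or are handled by tetraspanins were listed from general knowledge, 24 genes of which 22 were tested. The list was written with earlier results of these data known, so its counts are no independent test of the partners. With the mouse as a block 2 rose and 0 fell, beside 0.0961% and 0.160% of all genes, and without it edgeR called 0 of the 22. The 2 are Itga2b, the integrin alpha IIb that pairs with CD61 and is the integrin which Tspan32 regulates in platelets, and Zdhhc2, a palmitoyltransferase known from human cells to attach palmitate to CD9 and CD151. Zdhhc2 (ENSMUSG00000039470.15, chromosome 8, 40423815 to 40510268) had 21.8, 12.1 and 20.4 CPM in CD61High of mice 1, 2 and 3, against 3.71, 1.63 and 3.53 CPM in CD61Low. The groups did not overlap, and the log2 difference was 2.53, 2.83 and 2.50 in mice 1, 2 and 3. Its blocked fold change was 2.64 (SE 0.23, adjusted p = 0.0344 in edgeR), and without the block it was 2.61 (SE 0.44, adjusted p = 0.652). The blocked call was lost without mouse 1 (adjusted p = 0.168), without mouse 3 (0.0740) or with library sizes alone (0.117).

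Itga2b had 515, 392 and 665 CPM in CD61High of mice 1, 2 and 3, against 82.6, 66.4 and 160 CPM in CD61Low, and its blocked log2 fold change was 2.42 (SE 0.17, adjusted p = 0.0308 in edgeR). Without the block the value was 2.35 (SE 0.40, adjusted p = 0.652), and with it the call was lost without mouse 1 (adjusted p = 0.160) or with library sizes alone (0.117). Itgb3, which encodes CD61 itself, did not follow the gate at the level of mRNA, with 206, 140 and 226 CPM in CD61High and 294, 129 and 336 CPM in CD61Low (log2 fold change -0.41, SE 0.39, adjusted p = 0.926 in edgeR without the block). It was lower in CD61High in mice 1 and 3 and slightly higher in mouse 2. With the block the value was -0.32 (SE 0.17, adjusted p = 0.3335 in edgeR). Without mouse 2 the blocked value was -0.56 (SE 0.11, adjusted p = 0.052 in edgeR), just short of the threshold. The partners of Cd151 and Cd9, Itga6 and Itgb1, averaged 259.6 ± 83.3 and 544 ± 100.2 CPM in CD61High and 309 ± 139.8 and 457 ± 87.8 CPM in CD61Low, and neither passed the test. Cd36, a scavenger receptor that associates with Cd9, and Clec7a, which Cd37 steadies on antigen-presenting cells, had the smallest unadjusted p with the block after the 2 called genes. Cd36 had 10.8, 127 and 5.46 CPM in CD61High of mice 1, 2 and 3, against 28.0, 216 and 8.40 CPM in CD61Low (blocked log2 fold change -0.92, SE 0.18, adjusted p = 0.0761 in edgeR). Clec7a had 17.4, 129 and 11.5 CPM in CD61High, against 61.7, 184 and 22.9 CPM in CD61Low (-1.10, SE 0.26, adjusted p = 0.0961 in edgeR with the block, and -1.43 at 0.0468 without mouse 2). Both were highest in mouse 2, as were the neutrophil and monocyte markers, whose part in these differences was not tested. Ackr1, which binds CD82 across cells in mouse marrow, had 8.81, 27.4 and 7.67 CPM in CD61High and 7.90, 49.7 and 6.21 CPM in CD61Low, and shares 25.7% of its exon bases with Cadm3.

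**Figure D5:**
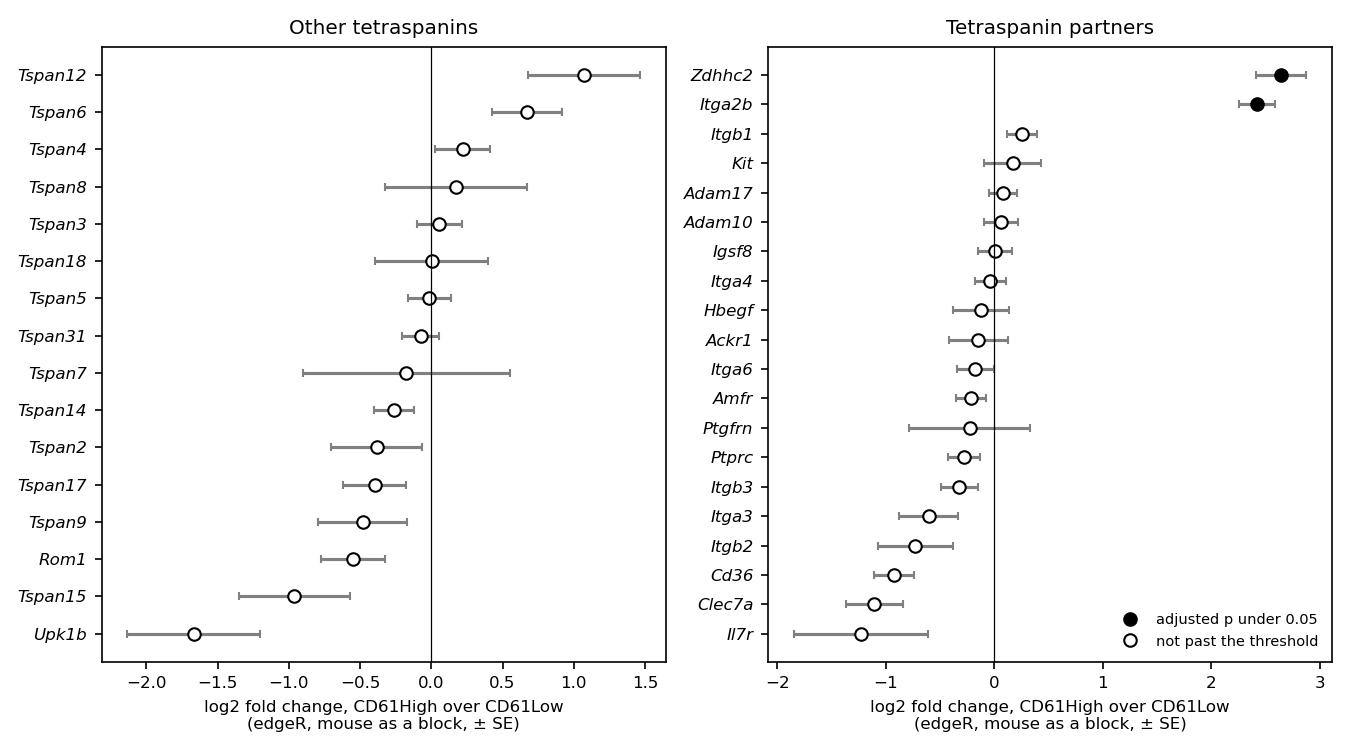
Log2 fold change of CD61High over CD61Low with the mouse as a block (edgeR, ± SE) for the 16 other tetraspanins tested and 20 of the 22 partners tested. Filled points mark an adjusted p under 0.05, which Zdhhc2 (2.64) and Itga2b (2.42) passed and no other tetraspanin did.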

How the data were processed

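RNA-seq libraries were made, per the labels' protocols, from 4 ng of total RNA with SMART-Seq v4 and from 1 ng of cDNA with Nextera XT, which mark no strand. The authors deposited raw gene counts. The submitters' processing notes name STAR 2.7, edgeR and MultiQC, and the genome build is not given in the sources used here. All 55450 gene identifiers of the library tables are those of GENCODE M21 (GRCm38), which gave symbols, coordinates and exon lengths. The unstranded counts were used, since 49.9% to 50.0% of stranded counts were on the first strand, and 0 values differed between the library tables and the series table, whose lowest gene sum was 31. Lines that name no gene were left out of library sizes: unmapped reads were 4.36% to 10.9% of reads, multimapping 10.0% to 15.6%, outside genes 2.88% to 4.21% and ambiguous 3.55% to 4.37%.

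Tests used edgeR 4.0.16 (R 4.3.3), with TMM factors, filterByExpr by group, robust dispersions and the two-sided quasi-likelihood F-test, adjusted by Benjamini-Hochberg over 15610 genes. The test had no block, and a fit with the mouse as a block, DESeq2 1.42.0 and limma voom (limma 3.58.1) served as alternatives. Standard errors were derived from the F statistic, and log2 CPM per mouse carries a prior count of 2. Same-numbered libraries come from 1 mouse per the titles. The correlation of their deviations from the group means was 0.24, 0.81 and 0.76 in mice 1, 2 and 3, against -0.82 to 0.37 between different mice. No 2 libraries agreed within sampling noise (lowest chi-square per degree of freedom 45.6). The scripts were tested on simulated data. Promoter sequences are RefSeq's (GRCm38.p6) and matched 10 of 10 members.

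The members, lists and tests were chosen with earlier results of these data known. Named genes are the members, Itgb3, Itga2b and Zdhhc2, the 4 most abundant other tetraspanins per kb, the 4 partners with the smallest p with the block, and the 3 genes nearest to each of Cd9, Cd82 and Cd53; others mentioned (Cd48, Ly6a, Procr, Tspan5, Tspan15, Tspan17, Tspan18, Adam10, Itga6, Itgb1, Ackr1) were added for their role, after their values were seen.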

Additional observations from a re-analysis of the deposited data

How the results depend on the processing

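Without the replicate block DESeq2 called 237 genes and 2 partners, against 0 and 0 in edgeR. With the replicate block (the mouse, paired by the titles) edgeR called 40 genes, 1 member and 2 partners, DESeq2 1566, 3 and 6, limma voom 489, 2 and 2, and edgeR with relative log expression factors 88, 1 and 2. With the block, upper-quartile factors gave 8 genes, 0 members and 2 partners, and library sizes alone 0 of each and a member median of -0.175. Leaving out a mouse or a library without the block gave 0 to 133 genes, 0 members, 0 to 1 partners and a median of -0.432 to 0.104, the highest without the CD61Low library of mouse 2. With the block, leaving out mouse 2 gave 742 genes, 2 members and 3 partners, leaving out mouse 3 gave 7, 0 and 1 with a median of -0.205, and leaving out mouse 1 gave 0 of each. No other tetraspanin was called under any of the 24 alternatives. The cause of these shifts was not tested. Without the block, p-values rest on the spread between the libraries of a group. With it, they rest on how far the difference between the groups varied over 3 mice. In both cases the spread of a gene was also drawn toward that of other genes. For Cd82 the SD of the log2 difference over mice was 0.014, while the blocked SE was 0.12. Its p-value with the block therefore does not rest on its own spread alone.

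Over 28 named genes and 24 alternatives, 571 values kept direction and side of the threshold, 40 passed it and 61 changed sign, all for genes not called in the unblocked edgeR fit. The sign of Cd9 turned to -0.016 with relative log expression factors and with DESeq2, and to -0.01 with the block without mouse 1. The block without mouse 3 gave Cd151 0.028 and Tspan3 0.166, without mouse 1 Tspan3 0.13, and without mouse 2 Tspan4 -0.027, Scp2 0.05 and Fahd1 0.139. Tspan3 was 0.004 with library sizes alone, 0.011 with no filter on low counts, 0.055 with voom, and with the block 0.057, 0.034 (DESeq2 and relative log expression), 0.053 (voom), 0.047 (upper quartile) and 0.142 (library sizes alone). Library sizes alone gave Scp2 0.043 and Fahd1 0.097, and with the block Scp2 0.044, Fahd1 0.106 and Tspan31 0.011. Fahd1 was 0.049 with voom, 0.019 with the block and 0.009 with the block and upper-quartile factors. Leaving out 1 mouse or library without the block gave -0.253 to 0.389 for Cd9, -1.798 to 0.627 for Cd37, -2.906 to 0.325 for Cd53, -0.725 to 0.079 for Cd151, -0.031 to 0.331 for Tspan13, -2.235 to 0.802 for Tspan33, -0.213 to 0.336 for Tspan4, -0.328 to 0.188 for Tspan3, -0.18 to 0.044 for Tspan31, -3.372 to 1.397 for Cd36, -2.633 to 0.316 for Clec7a, -0.289 to 0.276 for Scp2, -0.205 to 0.393 for Ppm1d, -0.33 to 0.444 for Fahd1, -3.28 to 0.125 for Csf2rb, -2.763 to 0.655 for Aatk and -2.791 to 0.288 for Prkcb.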
